A study of Mus musculus with 16 samples.

Results

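Reads on 10 genes of macrophages and of MHC class II antigen presentation were followed in sensory neurons sorted from 4 kinds of mouse ganglion. The genes were chosen by symbol, and all 10 were found among the 22609 gene symbols of the count tables: *Cd74*, *H2-Aa*, *H2-Ab1*, *H2-Eb1*, *Csf1r*, *Cx3cr1*, *Aif1*, *C1qa*, *C1qb* and *C1qc*. Adult naive C57BL/6J mice, labelled male, carried Pirt-cre and a Rosa26 reporter for the red fluorescent protein TdTomato, so that cells with a history of *Pirt* expression were red. Live TdTomato+ cells were sorted in 2 rounds from trigeminal ganglia (TG), nodose and jugular ganglia (NG/JG), L3–L5 dorsal root ganglia (L3–L5 DRG) and T10-L1 dorsal root ganglia (T10-L1 DRG). Each ganglion gave 4 libraries, 16 in all, and no group was treated. The labels do not say whether the libraries came from separate animals or how many animals each held, so p-values measure only the spread between these libraries.

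Macrophages live among the neurons of sensory ganglia, take up debris and respond to nerve injury. They depend on the receptor CSF1R, present peptides on MHC class II molecules and are a main source of the complement protein C1q. These genes are commonly used as macrophage markers, and which cells their reads came from was not tested here. In bulk libraries of this kind, fewer cells of a type and less RNA per cell cannot be told apart.

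MHC class II genes are known for a promoter arrangement in which an X box and a Y box lie a short distance apart just before the transcription start and are bound by the RFX and NF-Y complexes, with which the transactivator CIITA acts. The letters GCAAC, found in many X boxes, and ATTGG, the core of the Y box, were searched on both strands of the 250 bases before each start in RefSeq promoters of GRCm38.p6. Of the 10 genes, 6 had a promoter in that table (*H2-Aa*, *H2-Eb1*, *Cx3cr1*, *Aif1*, *C1qb* and *C1qc*), and the class II genes *H2-Aa* and *H2-Eb1* held both motifs in that order, 15 to 45 bases apart. The pair was present in 1.15% of 32851 promoters, GCAAC with or without ATTGG in 29.9%, and ATTGG with or without GCAAC in 33.9%. The motifs were picked after these promoters had been read, so the matches are a description. The 120 bases before the start are shown for both genes and for *H2-Oa* and *H2-Ob*, which code for a class II-like modulator of peptide loading and were picked because they held the pair too. Capitals mark GCAAC and ATTGG, and the sequences run 5′ to 3′ on the strand of the gene.
H2-Aa, chr17:34287824-34287943, minus strand: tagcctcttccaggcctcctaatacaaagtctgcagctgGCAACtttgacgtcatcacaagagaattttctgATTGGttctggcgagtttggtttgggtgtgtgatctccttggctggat
H2-Eb1, chr17:34305747-34305866, plus strand: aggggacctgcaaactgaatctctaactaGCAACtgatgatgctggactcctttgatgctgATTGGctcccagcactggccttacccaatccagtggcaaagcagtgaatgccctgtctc
H2-Oa, chr17:34092259-34092378, plus strand: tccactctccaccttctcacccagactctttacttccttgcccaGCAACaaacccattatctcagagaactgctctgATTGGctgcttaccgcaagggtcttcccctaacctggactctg
H2-Ob, chr17:34238785-34238904, plus strand: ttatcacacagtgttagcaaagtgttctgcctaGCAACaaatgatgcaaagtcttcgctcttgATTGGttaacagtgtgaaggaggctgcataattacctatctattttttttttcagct
The gap between the motifs was 28 bases in *H2-Aa*, 27 in *H2-Eb1*, 28 in *H2-Oa* and 25 in *H2-Ob*. The promoters of *Aif1*, *C1qb* and *C1qc* held neither motif, and that of *Cx3cr1* held ATTGG without GCAAC. Of the peptide loading genes searched beside them, *H2-DMa* (2 promoters), *H2-DMb1* and *H2-DMb2* did not hold the pair in these letters.

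On mm9, the build of the counts, *H2-Ab1* (34400154 to 34406363, plus strand), *H2-Aa* (34406276 to 34424772, minus), *H2-Eb1* (34442828 to 34453144, plus) and *Aif1* (35307936 to 35313013, minus) lie on chromosome 17. The C1q genes lie together on the minus strand of chromosome 4, in the order *C1qb*, *C1qc* and *C1qa* between 136436044 and 136454718. *Cx3cr1* lies on the minus strand of chromosome 9 (119957811 to 119977400), and *Cd74* (60963502 to 60972300) and *Csf1r* (61265226 to 61291803) lie on the plus strand of chromosome 18. *Csf1r* shares 16.7% of its annotated exon length with *Hmgxb3* on the other strand, and the strand setting of the counting is not given in the sources used here, so its counts could include or lose reads there. The adjacent *H2-Aa* and *H2-Ab1* share 17 exonic bases, and *Cd74* shares 12 with an unnamed gene.

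Libraries had 4735624 to 13333318 reads on genes (median 8332661), and a count of 3, used as the floor of detection, corresponded to 0.225 to 0.6335 CPM (the count of a gene as its part per 1e6 reads on genes). These floors cover counting error only. Although the animals were labelled male, all 16 libraries held 1279 to 8362 reads on *Xist* and 0 reads on 8 named genes of chromosome Y. The 12 sensory neuron markers examined were read in every library and took 0.145% to 1.55% of the reads on genes, against 1.43% to 7.43% for 8 satellite glia markers. Replicates of a ganglion all differed by more than sampling noise, and TG library 1 stood apart from TG libraries 2 to 4 (chi-square 214 to 233 per gene against 29.9 to 33.3 among the other TG libraries).

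Together the 10 genes took between 0.00684% of the reads on genes in NG/JG library 3 and 3.25% in T10-L1 DRG library 4, a 475-fold span. In TG the share was 1.075%, 0.927%, 0.769% and 2.17% in libraries 1 to 4. In NG/JG it was 0.748%, 0.0444%, 0.00684% and 0.1435%. In L3–L5 DRG it was 1.29%, 0.0237%, 0.02705% and 0.187%. The 4 TG libraries thus spanned a narrower range than those of the other ganglia, whereas library 1 of NG/JG and library 1 of L3–L5 DRG held most of the reads of their groups. In T10-L1 DRG the share was 0.146%, 0.221%, 0.292% and 3.25%, so that libraries 1 to 3 were alike and library 4 was far above them. Library 1 was the highest of its ganglion for 10 of 10 genes in NG/JG and in L3–L5 DRG, library 4 for 10 of 10 in T10-L1 DRG, and TG library 4 for 8 of 10. Over all 14236 genes tested, the same libraries were the highest of their ganglion for 21.5% to 26.6% of the genes with counts above the floor there.

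**Figure D1:**
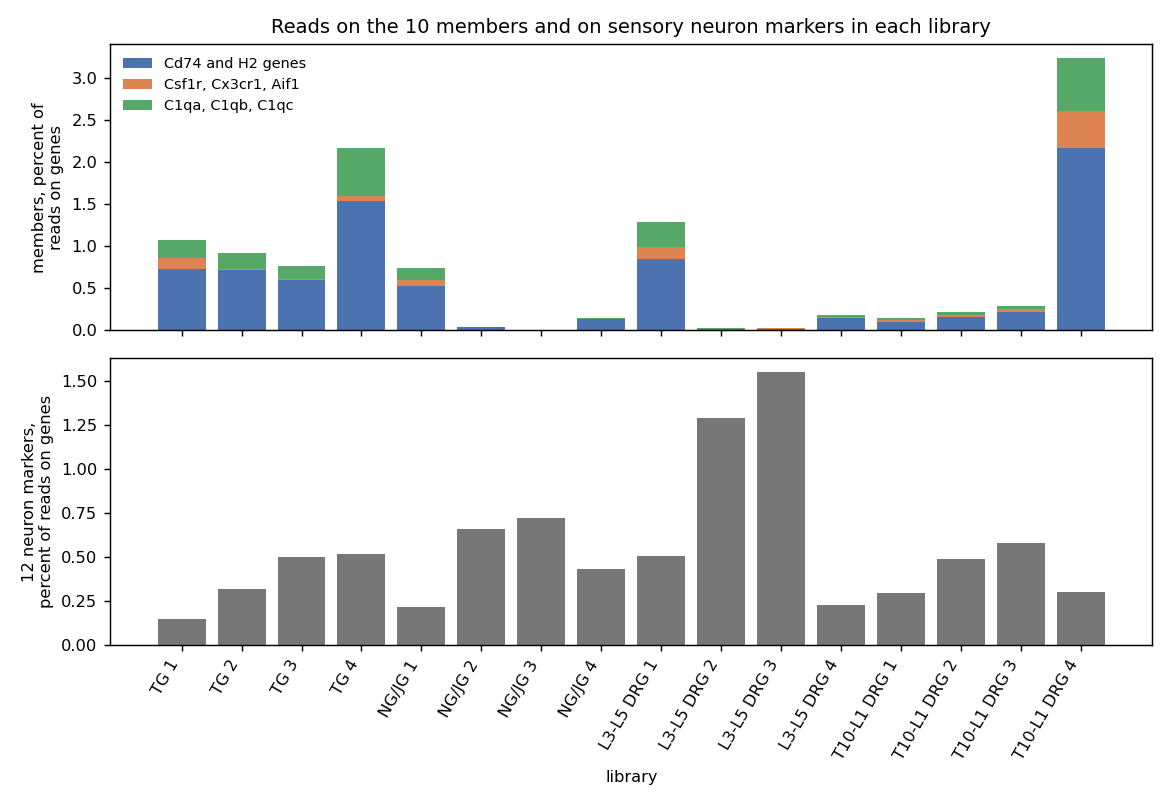
Bars give, for each of the 16 libraries on the x axis, the percent of reads on genes taken by the 10 genes (top, divided into class II genes, receptors with *Aif1*, and C1q) and by 12 sensory neuron markers (bottom). The share of the 10 genes is highest in T10-L1 DRG library 4 (3.25%) and lowest in NG/JG library 3 (0.00684%), and the neuron markers are highest in L3–L5 DRG libraries 2 and 3 (1.29% and 1.55%).

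The MHC class II genes made up the largest part of these reads. *Cd74*, which encodes the invariant chain that guides class II molecules to the endosome, was at 2060, 1156, 963 and 3145 CPM in TG libraries 1 to 4 and at 1775, 119, 8.02 and 280 CPM in NG/JG. It was at 2879, 36.2, 58.0 and 491 CPM in L3–L5 DRG and at 363, 506, 762 and 8512 CPM in T10-L1 DRG. The TG range overlapped that of every other ganglion, because each of these held a library above the lowest TG library. *H2-Ab1*, the beta chain of the class II molecule I-A, was at 1698, 2154, 1845 and 2910 CPM in TG and at 1133, 59.2, 21.7 and 666 CPM in NG/JG. In L3–L5 DRG it was at 1616, 54.7, 58.3 and 369 CPM, and in T10-L1 DRG at 257, 419, 577 and 3391 CPM. All TG libraries were above all NG/JG and all L3–L5 DRG libraries for *H2-Ab1*, although L3–L5 DRG library 1 came close to the lowest TG library. *H2-Aa*, the alpha chain of I-A, ranged from 1573 to 4802 CPM in TG, from 12.02 to 994 in NG/JG, between 33.4 and 2048 in L3–L5 DRG, and between 201 and 5051 in T10-L1 DRG. *H2-Eb1*, the beta chain of the class II molecule I-E, ranged from 1643 to 4604, 11.3 to 1407, 50.9 to 1975 and 154 to 4708 CPM in the same order. C57BL/6 mice are known to lack a functional I-E alpha chain, and its gene, listed as *H2-Ea-ps*, had 0 to 8 counts per library while *H2-Eb1* had 82 to 62771.

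The C1q genes encode the A, B and C chains of the protein that starts the classical complement pathway. *C1qa* was at 561, 478, 350.0 and 1472 CPM in TG libraries 1 to 4 and at 457, 0.569, 1.935 and 0.517 CPM in NG/JG. It was at 860.5, 3.08, 9.89 and 65.9 CPM in L3–L5 DRG and at 53.5, 101, 126.5 and 1780 CPM in T10-L1 DRG. NG/JG libraries 2, 3 and 4 had only 5, 14 and 5 counts of *C1qa*, so that the reads of that ganglion came almost entirely from library 1. *C1qb* ranged from 651 to 2432 CPM in TG, from 1.14 to 561 in NG/JG, between 3.30 and 1257 in L3–L5 DRG, and between 115 and 2790 in T10-L1 DRG. *C1qc* ranged from 530.2 to 1802, 2.96 to 467.5, 6.345 to 844 and 80.5 to 1834 CPM in the same order. For *C1qb* and *C1qc*, but not for *C1qa*, all TG libraries were above all NG/JG libraries.

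The receptors were divided differently among the libraries. *Csf1r*, the receptor for the growth factors CSF1 and IL-34 on which macrophages depend, was at 841, 72.6, 42.3 and 203 CPM in TG libraries 1 to 4 and at 489, 0.683, 4.70 and 1.34 CPM in NG/JG. It was at 1098, 13.2, 32.6 and 105 CPM in L3–L5 DRG and at 162.5, 208, 256 and 3368 CPM in T10-L1 DRG. TG libraries 2 and 3 were thus below every T10-L1 DRG library for *Csf1r*, whereas for the class II and C1q genes they were above T10-L1 DRG libraries 1 to 3. *Cx3cr1*, the receptor for the neuronal chemokine fractalkine, was at 479, 39.7, 34.9 and 112 CPM in TG and at 167, 42.8, 1.11 and 0.207 CPM in NG/JG. It was at 281, 0.397, 0.906 and 29.4 CPM in L3–L5 DRG and at 44.5, 48.9, 54.8 and 896 CPM in T10-L1 DRG. TG libraries 2 and 3 again lay below every T10-L1 DRG library. *Aif1*, which encodes the calcium-binding protein Iba1 of macrophages and microglia, was at 56.6, 48.0, 55.7 and 229.5 CPM in TG and had 189, 0, 2 and 1 counts in NG/JG. It was at 64.7, 0.397, 3.30 and 6.76 CPM in L3–L5 DRG and at 7.64, 7.33, 12 and 145 CPM in T10-L1 DRG. In NG/JG, *Aif1* was above the floor of 3 counts in library 1 only.

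**Figure D2:**
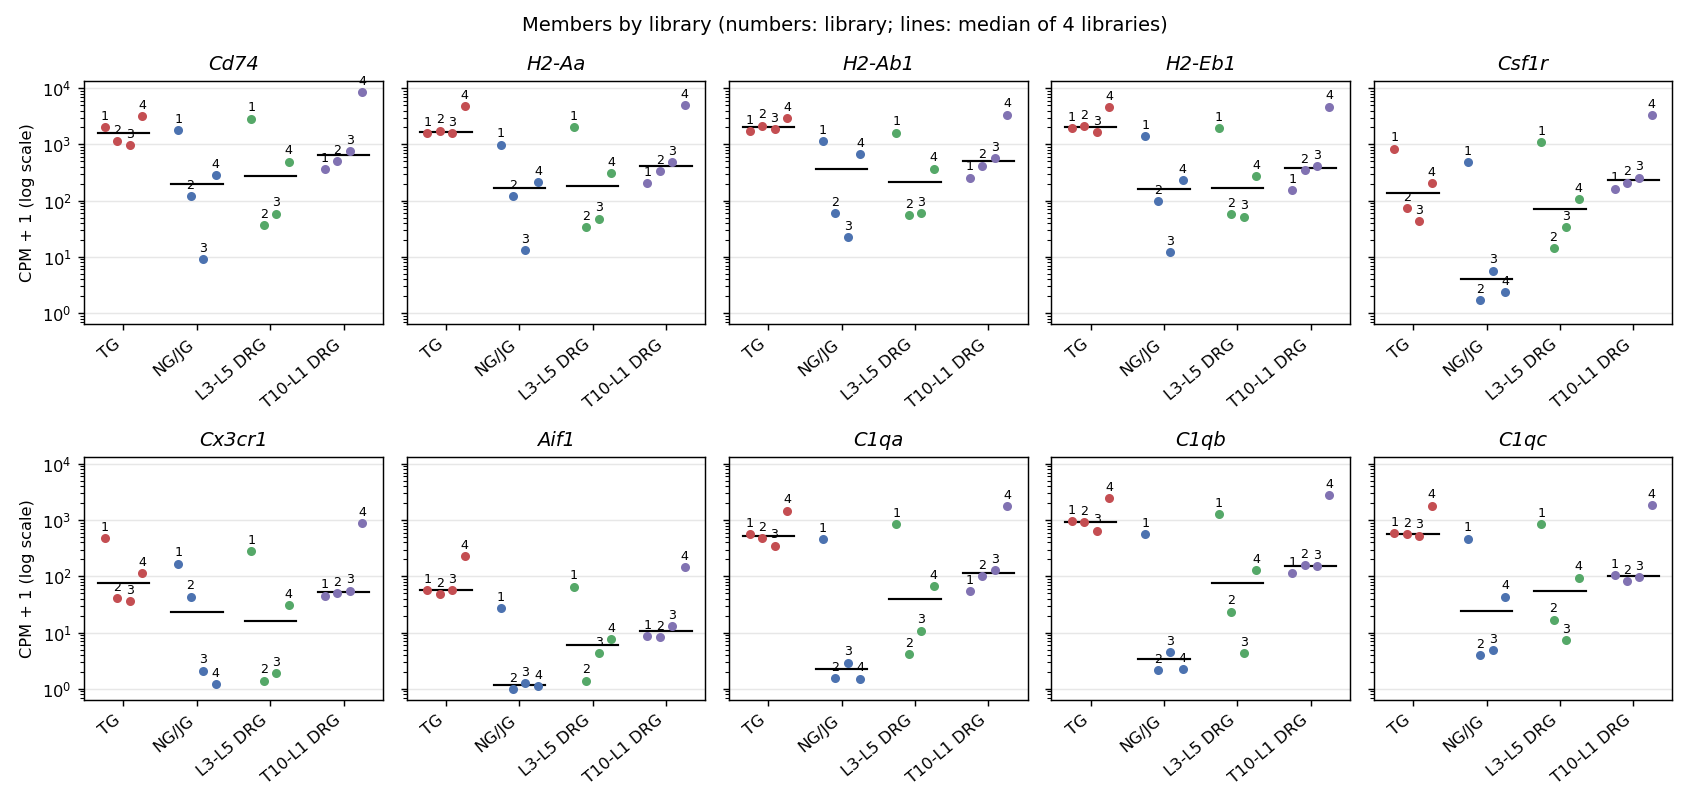
Each panel plots 1 gene as CPM + 1 on a log axis for the 4 libraries of each ganglion, with the library number at each point and a line at the median of 4. TG libraries span a narrower range than those of the other ganglia for the class II and C1q genes, with library 4 above the rest, and library 1 of NG/JG and of L3–L5 DRG and library 4 of T10-L1 DRG lie above the other libraries of their ganglia in every panel.

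Per length of annotated exon, as CPM divided by the exon length in kilobases (RPKM), the class II genes had the highest levels, with medians over the 16 libraries of 449.5 for *Cd74*, 378 for *H2-Ab1*, 318 for *H2-Eb1* and 206 for *H2-Aa*. The C1q genes followed with median RPKM of 140.5 for *C1qb*, 109 for *C1qa* and 52.3 for *C1qc*, and then *Csf1r* (25.6), *Cx3cr1* (11.7) and *Aif1* (6.41). For scale, the neuronal tubulin gene *Tubb3* had a median of 321 RPKM, within the range of the class II genes, and the satellite glia gene *Apoe* ranged from 5261 to 29600 RPKM. The range over libraries was wider than the distance between these neighbours for all 10 genes, with *Cd74* alone running from 5.685 to 6037 RPKM. By median CPM, TG was the highest ganglion for 9 of 10 genes and T10-L1 DRG for *Csf1r* (232 against 138 CPM in TG), and T10-L1 DRG was the next after TG for the other 9. L3–L5 DRG and NG/JG took the lower places and had median CPM of 178 and 167 for *H2-Aa*, where neither could be told from the other against ranges of 33.4 to 2048 and 12.02 to 994.

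The spread among libraries of the same ganglion was large for these genes. On the log2(CPM + 1) scale, their within-ganglion SD ranged from 1.97 (*H2-Ab1*) to 2.875 (*C1qa*) with a median of 2.45, against a median of 1.26 over all 14236 genes tested and 0.832 over the 5212 genes with a mean CPM at least as high as that of *Aif1*, the lowest of the 10. Differences between ganglia took 27.8% (*Cx3cr1*) to 53.0% (*Aif1*) of their variance. The median was 41.4%, against 29.2% over all genes tested and 33.8% over the same 5212 genes. In T10-L1 DRG, library 4 exceeded the next highest library 5.88-fold (*H2-Ab1*) to 17.9-fold (*C1qb*). In L3–L5 DRG, library 1 exceeded the next 4.38-fold (*H2-Ab1*) to 13.1-fold (*C1qa*).

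Against this spread, 0 of 10 genes were called by the quasi-likelihood test of edgeR (adjusted p under 0.05) in any of the 6 pairs of ganglia or in the test of any difference among the 4 ganglia. At an unadjusted p under 0.05 there were 0 of 10 in the test over the 4 ganglia, against 17.5% of all genes, and 0 to 5 of 10 in the pairs, as given below. In the test over the 4 ganglia this count was 7 of 10 without NG/JG library 1, 5 of 10 without L3–L5 DRG library 1 and 4 of 10 without T10-L1 DRG library 4. Of all genes, 3028 of 14801, 2404 of 14584 and 2279 of 14561 were at that level in the same order. Each of these libraries was the highest of its ganglion for 10 of 10 genes, so its omission favours low p-values for them. DESeq2 called 0 of 10 in each as well, although its outlier cutoff left only 0 to 8 of the 10 with an adjusted p, and without that cutoff all 10 were tested and 0 were called. The share of all genes called by edgeR was 0% for L3–L5 DRG against T10-L1 DRG, 0.0322% for NG/JG against T10-L1 DRG, 0% for NG/JG against L3–L5 DRG, 5.87% for TG against T10-L1 DRG, 0% for TG against L3–L5 DRG, 0.051% for TG against NG/JG and 3.01% for any difference among the 4. By DESeq2 the shares in the same order were 0.488%, 6.14%, 4.82%, 15%, 11.3%, 6.39% and 12.7%. The 6 comparisons share libraries, so their values below are set side by side and do not bear on each other independently.

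TG against NG/JG had the highest fold changes, with all 10 genes higher in TG by the fitted value and a median log2 fold change of 2.80, against -0.05 over all genes tested. For *H2-Aa* the log2 value was 3.04 with a standard error of 0.99 (edgeR, unadjusted p = 0.00975 and adjusted p = 0.243). The values for *H2-Ab1* were 2.34 (standard error 0.95, adjusted p = 0.411 in edgeR), and those for *H2-Eb1* were 2.75 (standard error 1.05, adjusted p = 0.358 in edgeR). At an unadjusted p under 0.05 there were 5 of 10 genes (*H2-Aa*, *H2-Ab1*, *H2-Eb1*, *Aif1* and *C1qc*), against 10% of all genes tested. The CPM of the 4 TG libraries did not overlap those of the 4 NG/JG libraries for 6 of 10 genes (*H2-Aa*, *H2-Ab1*, *H2-Eb1*, *Aif1*, *C1qb* and *C1qc*), against 5.17% of genes that were higher in TG without overlap. *Csf1r* had the lowest value, 1.34 (standard error 1.62, adjusted p = 0.906 in edgeR), with the TG and NG/JG libraries overlapping.

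Leaving out NG/JG library 1 raised the median of this comparison to 5.08 on the log2 scale. That library was the highest of its ganglion for 10 of 10 genes, against 26.6% of all genes with counts above the floor there. Calls of these 10 genes are thus favoured by leaving it out. Without it, edgeR called 3 of 10 genes higher in TG, against 0.169% of all genes in that direction and 0.249% in either: *C1qa* (9.57, standard error 0.91, adjusted p = 0.00303), *C1qb* (9.41, standard error 0.82, adjusted p = 0.00303) and *Aif1* (adjusted p = 0.0239). The 3 NG/JG libraries left had 0, 2 and 1 counts of *Aif1*, at or under the floor, so no fold is given for it. In the test of any difference among the 4 ganglia the same omission gave 2 of 10 calls in edgeR, *Aif1* (adjusted p = 0.0446) and *C1qb* (adjusted p = 0.0498), against 3.97% of all genes.

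TG against L3–L5 DRG gave all 10 genes a positive log2 fold change with a median of 2.27, against -0.03 over all genes tested. The values ranged from 0.18 (*Csf1r*, standard error 1.23, adjusted p = 0.961 in edgeR) to 2.80 (*Aif1*, standard error 1.21, adjusted p = 0.251 in edgeR). At an unadjusted p under 0.05 there were 3 of 10 (*H2-Ab1*, *H2-Eb1* and *Aif1*), against 18.2% of all genes tested. Only *H2-Ab1* had TG libraries that were all above the L3–L5 DRG libraries, against 3.62% of genes in that direction. Leaving out L3–L5 DRG library 1 raised the median to 4.69, with 0 of 10 called in edgeR and adjusted p from 0.135 to 0.226.

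TG against T10-L1 DRG gave a median log2 fold change of 0.95, against -0.03 over all genes tested, and the genes did not share a direction. *H2-Aa*, *H2-Ab1*, *H2-Eb1*, *Aif1* and the C1q genes had values of 0.76 to 1.47, and *Cd74*, *Csf1r* and *Cx3cr1* had -0.20, -1.62 and -0.48. None had an unadjusted p under 0.05 in edgeR, against 21.6% of all genes tested, and no gene of the 10 had groups without overlap, against 17.1%. The comparison rested on T10-L1 DRG library 4. That library was the highest of its ganglion for 10 of 10 genes, against 21.5% of all genes with counts above the floor there. Leaving it out thus favours calls of these 10 genes, and their share and that of all genes are not a like comparison. Without library 4, edgeR called 7 of 10 genes higher in TG, against 0.583% of all genes in that direction and 0.901% in either. These were *H2-Aa* (3.21, standard error 0.58, adjusted p = 0.0444), *H2-Ab1* (2.74, standard error 0.42, adjusted p = 0.0361), *H2-Eb1* (3.455, standard error 0.55, adjusted p = 0.0361), *Aif1* (3.80, standard error 0.72, adjusted p = 0.0487) and the 3 C1q genes (3.30 to 3.58, adjusted p from 0.0361 to 0.0449), all by edgeR. *Cd74* then had 2.10 (standard error 0.49, adjusted p = 0.0592 in edgeR), whereas *Csf1r* had 0.70 (standard error 0.81, adjusted p = 0.714 in edgeR).

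NG/JG and the DRG were compared with each other in the remaining pairs, in which 0 of 10 genes had an unadjusted p under 0.05 in edgeR, against 6.07%, 5.91% and 6.04% of all genes for L3–L5 DRG against T10-L1 DRG, NG/JG against T10-L1 DRG and NG/JG against L3–L5 DRG. The median log2 fold change was -1.38 for L3–L5 DRG over T10-L1 DRG, -2.23 for NG/JG over T10-L1 DRG and -0.76 for NG/JG over L3–L5 DRG, and no gene of the 10 was free of overlap in these pairs, against 3.63%, 9.1% and 7.59% of all genes. The direction between the 2 DRG levels followed single libraries. Without T10-L1 DRG library 4 the median for L3–L5 DRG over T10-L1 DRG was 0.83 and all 10 values were positive, and without L3–L5 DRG library 1 it was -3.88 and all 10 were negative. Likewise the median for NG/JG over T10-L1 DRG went to 0.16 without T10-L1 DRG library 4 and to -4.55 without NG/JG library 1, and that for NG/JG over L3–L5 DRG went to 1.715 without L3–L5 DRG library 1 and to -2.97 without NG/JG library 1.

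**Figure D3:**
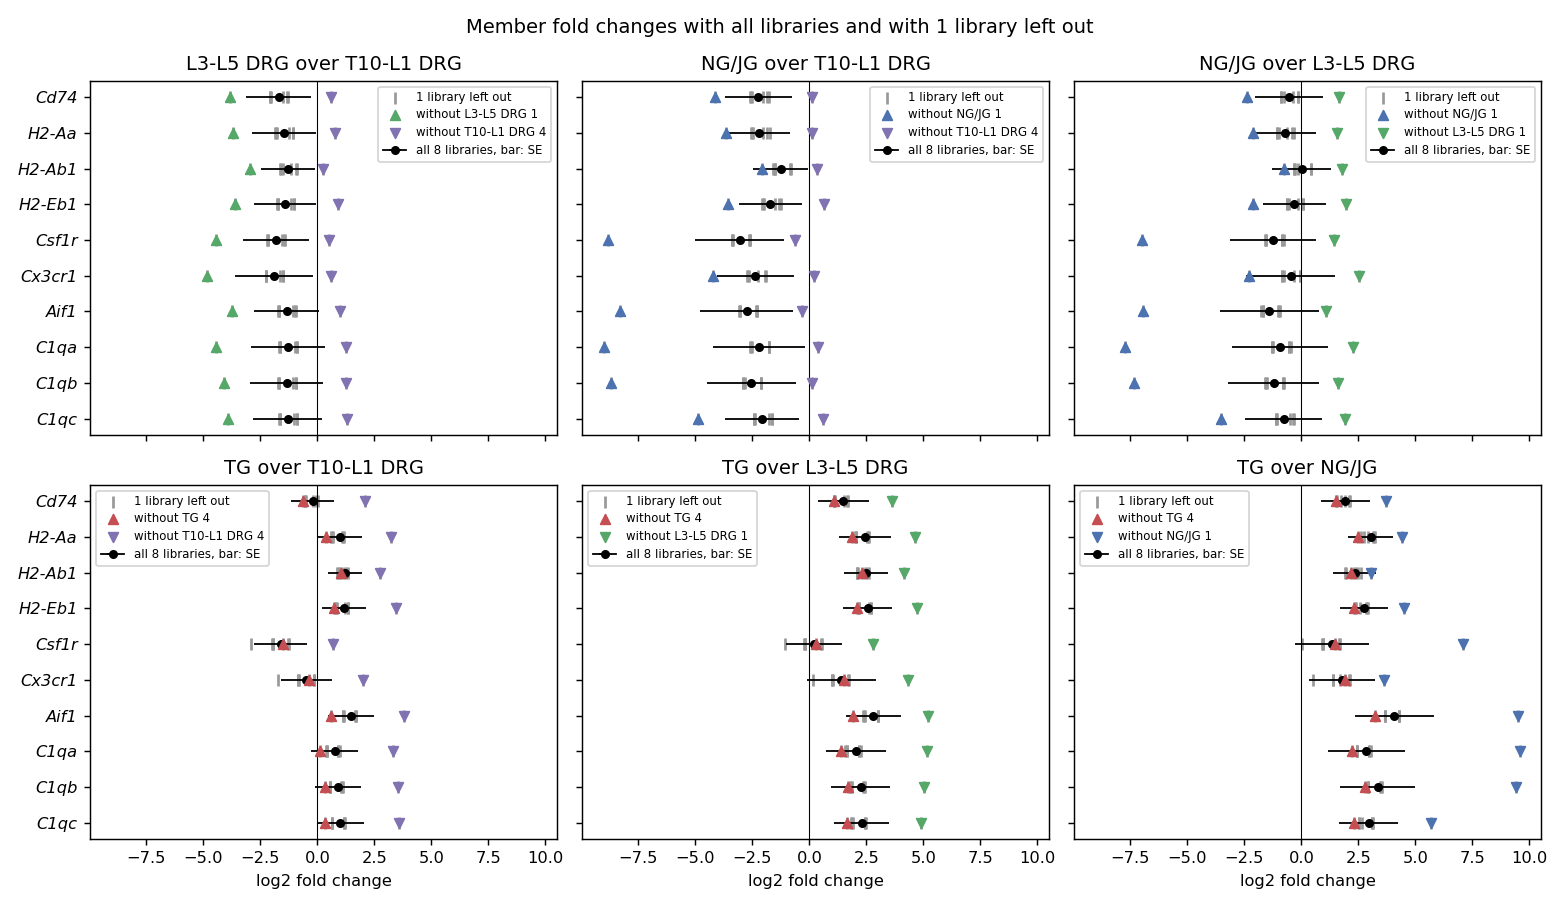
The log2 fold change (x axis) of each gene (y axis) is plotted for the 6 pairs of ganglia with all 8 libraries (black points, bars 1 standard error) and with 1 library left out (grey ticks, coloured symbols where the library with the highest share of its ganglion was left out). All 10 values of L3–L5 DRG over T10-L1 DRG turn positive without T10-L1 DRG library 4, and those of TG over NG/JG stay positive throughout.

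The proportions among the 10 genes were compared within each library, where its depth cancels. For every 100 counts on the class II genes there were 25.4 to 36.9 counts on the C1q genes in TG and 16.8 to 29.6 in T10-L1 DRG. In L3–L5 DRG there were 34.8, 22.9, 9.12 and 19.95 in libraries 1 to 4. In NG/JG there were 27.98, 1.18, 17.45 and 3.19. NG/JG libraries 2 and 4 thus held class II reads (3479 and 13442 counts) with few C1q reads (41 and 429 counts). They also had reads on fewer genes, 11314 and 10132, against 13029 and 12310 in NG/JG libraries 1 and 3. The part of this, and of uneven amplification, in their proportions was not tested. In NG/JG library 4, 412 of the C1q counts were on *C1qc* alone, which gave 3433 *C1qc* counts per 100 *C1qb* counts where T10-L1 DRG libraries had 51.7 to 91.1.

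*Csf1r* kept a narrow proportion to C1q in T10-L1 DRG, with 52.6 to 68.5 counts per 100 C1q counts. In TG there were 39.96 in library 1 and 3.70, 2.76 and 3.56 in libraries 2 to 4, the same division of TG libraries as in the chi-square values over all genes. The share of uniquely aligned reads outside annotated genes was 36.5% in TG library 1 and 40.8% to 45.45% in TG libraries 2 to 4. TG library 1 also had reads on fewer genes, 11527 against 14441, 14897 and 15354 in TG libraries 2 to 4. The part of either in this difference was not tested. L3–L5 DRG library 3 had 167 *Csf1r* counts per 100 C1q counts, against 31.7 to 37.1 in the other L3–L5 DRG libraries. In NG/JG library 2 *Cx3cr1* and *Csf1r* had 376 and 6 counts, where the other NG/JG libraries had fewer *Cx3cr1* than *Csf1r* counts. Library 2 was 1 of the NG/JG libraries with reads on fewer genes, and the part of this was not tested.

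**Figure D4:**
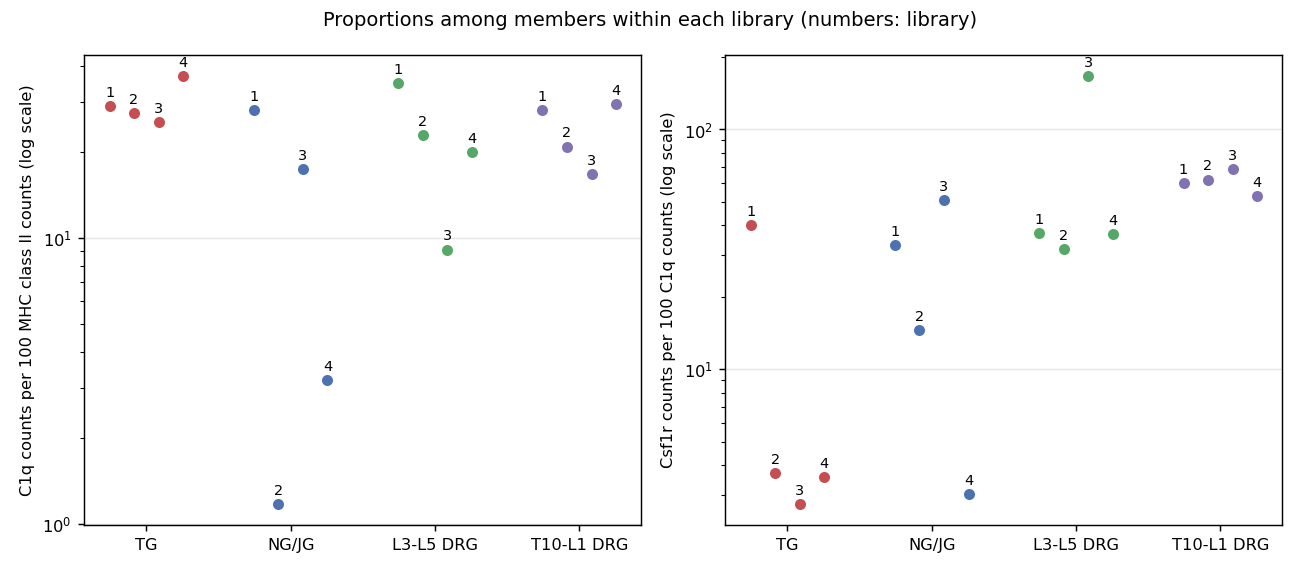
Points give, on log axes and for each library by ganglion, C1q counts per 100 class II counts (left) and *Csf1r* counts per 100 C1q counts (right), with the library number at each point. NG/JG libraries 2 and 4 lie lowest on the left (1.18 and 3.19), and TG libraries 2 to 4 lie near NG/JG library 4 on the right, below TG library 1.

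Over the 16 libraries, which share their depth and ganglion groups, the log2(CPM + 1) of the class II genes went together with a median pairwise Pearson r of 0.97, and the C1q genes with 0.95. The median r was 0.89 between class II and C1q genes and 0.71 between *Csf1r* and class II genes. As deviations from the ganglion means these medians were 0.97, 0.92, 0.85 and 0.76, and over the 12 libraries without the highest of each ganglion they were 0.97, 0.92, 0.82 and 0.58. The genes outside the 10 whose log2(CPM + 1) was most like their mean were *Ms4a7* (r = 0.98), *Lyz2* (0.97), *Sfpi1* (0.97), *Tyrobp* (0.97), *Rgs1* (0.97), *Il2rg*, *Ptpn18*, *Selplg*, *Pld4* and *Cd48* (0.96 each). *Lyz2* encodes the lysozyme of myeloid cells, *Sfpi1* the transcription factor PU.1 and *Tyrobp* the adaptor DAP12.

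A list of 24 other macrophage markers had a median r of 0.88 with the mean of the 10 genes, and 16 of 24 had an r above 0.8, against 1.19% of all other genes tested. *Lyz2* had 57 to 58655 counts, *Ctss*, a protease that trims the invariant chain, 6 to 21534, and the endotoxin co-receptor *Cd14* 20 to 19635, each with its highest CPM in T10-L1 DRG library 4. Of these markers, 24 of 24 were highest in library 4 within T10-L1 DRG, 22 of 24 in library 1 within L3–L5 DRG, 22 of 23 above the floor in library 1 within NG/JG and 14 of 24 in library 4 within TG. edgeR called 1 of the 24 in a pair of ganglia, against 1.54% of genes lower in TG than in T10-L1 DRG: the phagocytic receptor *Mertk* was at -2.11 on the log2 scale (edgeR, standard error 0.535, adjusted p = 0.0464). DESeq2 called *Mertk* there too (1 of 11 tested). It also called *Itgam* higher in TG against NG/JG (1 of 19) and *Lyve1* lower for NG/JG against T10-L1 DRG (1 of 9). Of 10 microglia markers, 3 had an r above 0.8, and the one called by edgeR, *Sparc*, was higher in TG than in T10-L1 DRG (1.71 with a standard error of 0.44, adjusted p = 0.0486) and is also a satellite glia gene. DESeq2 called *Sparc* higher in TG against either DRG level. It called *Tmem119* lower in NG/JG against each other ganglion (DESeq2, adjusted p from 4.06e-13 to 0.028). *Tmem119* had 4, 2, 5 and 1 counts in NG/JG, near the floor, so no fold is given. It had 325, 88, 131 and 173 in TG, 397, 7, 0 and 161 in L3–L5 DRG and 164, 163, 398 and 1377 in T10-L1 DRG.

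**Figure D5:**
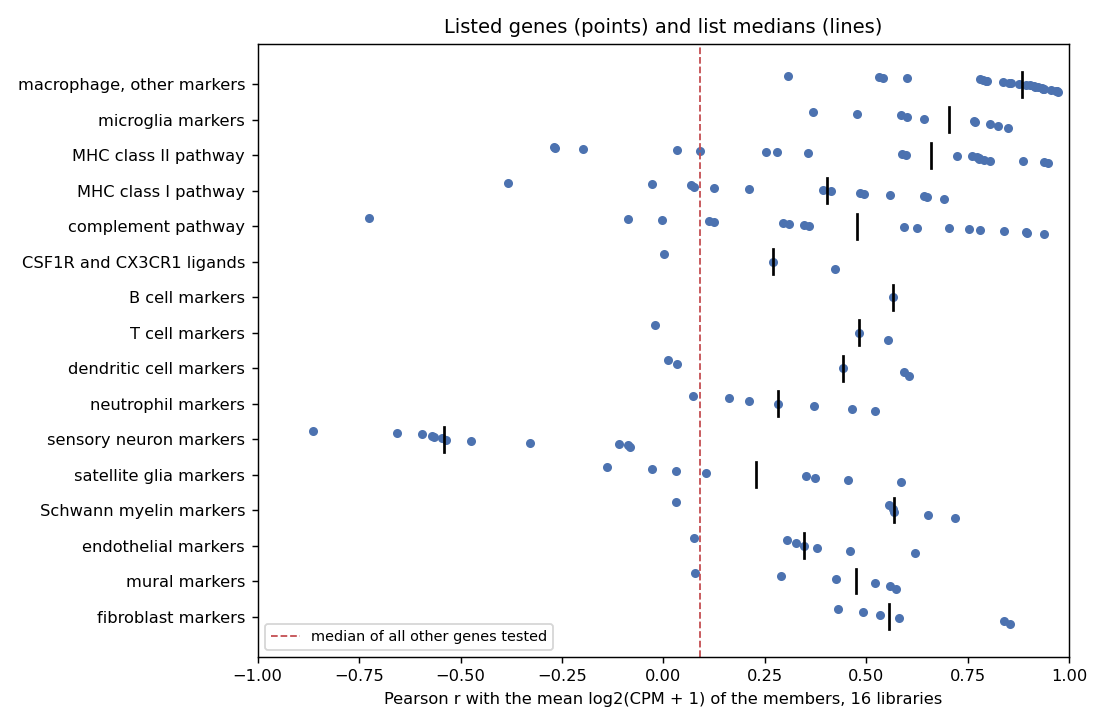
For 16 gene lists (y axis) each point is the Pearson r of 1 gene with the mean log2(CPM + 1) of the 10 genes over 16 libraries, with a line at the list median and a dashed line at the median of all other genes tested (0.09). Macrophage markers lie furthest right (median 0.88) and sensory neuron markers furthest left (median -0.54).

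Of the 22 other genes of class II presentation, 14 to 20 passed the filter on low counts in a given test and edgeR called 0. DESeq2 called *H2-Ob*, *Ifi30* and *Cd80* (3 of 19) higher in TG against NG/JG, where 616 of 13406 genes were called higher. Against L3–L5 DRG it called *H2-Ob* and *Ifi30* (2 of 21) higher in TG, beside 881 of 14221 genes. For NG/JG against T10-L1 DRG it called *H2-Ob* lower (1 of 17), beside 804 of 14815 genes. In the other pairs it called 0, and *Ifi30* differed among the 4 ganglia. In NG/JG, *H2-Ob* had 2, 0, 0 and 0 counts and *Cd80* had 1, 0, 0 and 0. *Ciita*, the transactivator of class II genes, had 43, 26, 24 and 135 counts in TG, 66, 0, 0 and 0 in NG/JG, 342, 1, 2 and 32 in L3–L5 DRG and 137, 58, 61 and 1392 in T10-L1 DRG. In each of the 4 ganglia, the library with the most class II reads thus also had the most *Ciita*, while NG/JG library 4 had 13442 class II counts and 0 of *Ciita*. The peptide loading gene *H2-DMa* had 0 to 2 counts in NG/JG libraries 2 to 4 against 479 in library 1, and 4447 in T10-L1 DRG library 4. For TG over T10-L1 DRG the fitted value of *Ciita* was -1.52 (standard error 1.07, adjusted p = 0.465 in edgeR). Its sign was opposite to that of the H2 genes and the same as that of *Cd74*. *Ciita* was at 5.46, 5.12, 4.12 and 23.7 CPM in TG and at 20.9, 5.52, 5.01 and 104 CPM in T10-L1 DRG. Library 4 of T10-L1 DRG thus weighed on this value too.

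The ligands of the 2 receptors did not follow the 10 genes. *Csf1* and *Il34* encode the ligands of CSF1R and *Cx3cl1* encodes fractalkine, the ligand of CX3CR1. Their r with the mean of the 10 genes was 0.00 for *Csf1*, 0.42 for *Il34* and 0.27 for *Cx3cl1* over 16 libraries, and 0 of 3 had their highest value in the library that was highest for the 10 genes, in any ganglion. *Csf1* ranged from 2 to 637 counts, *Il34* from 114 to 1545 and *Cx3cl1* from 2 to 651. edgeR and DESeq2 called 0 of 3 in any comparison. At an unadjusted p under 0.05 there were 0 of 3 in edgeR. In DESeq2 *Csf1* alone passed that unadjusted level, for L3–L5 DRG against T10-L1 DRG (adjusted p = 0.559 in DESeq2).

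Of the 22 other complement genes, edgeR called 1 in a pair of ganglia, *C4b*, the C4 component cleaved after C1q binds. It was lower in TG than in T10-L1 DRG, at -2.32 on the log2 scale (edgeR, standard error 0.36, adjusted p = 0.0254), with counts of 390 to 565 against 1821 to 7758. Its r with the 10 genes was 0.13. DESeq2 called 5 of 17 complement genes tested lower in TG than in T10-L1 DRG, *C4b* among them, against 824 of 14580 genes lower and 15% of all genes in either direction. In each other pair it called 0 to 2. Of 14 MHC class I genes, which nearly all cells use, 2 were higher in TG than in T10-L1 DRG in edgeR, the immunoproteasome subunit *Psmb8* (1.61, standard error 0.40, adjusted p = 0.0446) and its activator *Psme1* (1.24, standard error 0.31, adjusted p = 0.0448), against 4.33% of genes higher in TG. DESeq2 called 6 of 14 class I genes higher in TG than in T10-L1 DRG and 6 of 14 higher than in L3–L5 DRG. Of all genes, 1370 of 14580 and 881 of 14221 were called higher in TG in these 2 pairs. The shares of all genes in either direction were 15% and 11.3%. In the other pairs DESeq2 called 0 class I genes. The class I light chain *B2m* had 6289 to 48950 counts and differed among the 4 ganglia (adjusted p = 0.0327 in edgeR).

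Markers of other cell types were read in the same libraries, and their part in the results above was not tested. Sensory neuron markers had a median r of -0.54 with the 10 genes, and 12 of 12 were read in every library. L3–L5 DRG libraries 2 and 3, low in the 10 genes, had the highest neuron marker shares (1.29% and 1.55% of reads on genes), and TG library 1 the lowest (0.145%). *Pirt* itself had 106 to 3164 counts, including 2738 in T10-L1 DRG library 4. The B cell gene *Cd79b*, whose protein partners the B cell receptor, had 228, 183 and 125 counts in T10-L1 DRG library 4, L3–L5 DRG library 1 and TG library 4, and was at 0 in 10 of 16 libraries, while *Ms4a1* was at 0 in 13. Summed over 6 genes, B cell markers stayed at 24.1 CPM or lower, T cell markers at 34.5 CPM or lower and 7 dendritic cell markers at 226 CPM or lower, against 68.4 CPM at the lowest for the 10 genes. The dendritic cell gene *Cd209a* had 792 counts in NG/JG library 4 and 2141 in T10-L1 DRG library 4. The median r was 0.57 for Schwann cell myelin, 0.56 for fibroblast, 0.47 for mural, 0.35 for endothelial, 0.28 for neutrophil and 0.23 for satellite glia markers, 0.48 and 0.44 for the T cell and dendritic cell markers tested, and 0.40 for class I genes. Several of these lists were also highest in the libraries that were highest for the 10 genes. In T10-L1 DRG library 4 these were 6 of 6 fibroblast and 6 of 7 neutrophil markers, in L3–L5 DRG library 1 they were 8 of 9 neutrophil markers and 13 of 14 class I genes, and in NG/JG library 1 they were 6 of 6 Schwann cell myelin and 6 of 7 endothelial markers.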

How the data were processed

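The deposited values were raw read counts per gene symbol, 1 table per library. The authors prepared oligo dT SMART-seq2 cDNA from sorted cells, sequenced 50-base single reads, made read files with CASAVA and bcl2fastq, used TopHat2 with its defaults for alignment to mm9, and took counts per gene from HTSeq-count. Annotation, strand setting and versions are not given in the sources used here. Reads that were not assigned to a gene (29.6% to 66.6% of uniquely aligned reads had no feature) were left out of library sizes and tests. Because SMART-seq2 amplifies small amounts of RNA without molecular identifiers, counts of a gene can vary more between libraries than its sampling error.

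Each of 6 pairs of ganglia was fitted on its 8 libraries, and all 16 in a test of any difference, with edgeR 4.0.16 in R 4.3.3 (TMM, filterByExpr, quasi-likelihood test, Benjamini-Hochberg over all genes tested, threshold 0.05), with group as the only term. The alternatives were DESeq2 1.42.0, RLE size factors, no filter, 1 fit of all libraries, the replicate number as a block and each library left out. DESeq2 without its outlier cutoff was added after the data were seen. The scripts were tested on simulated counts. Correlations used log2(CPM + 1). RPKM used the union of exons in GENCODE mouse release 1 on NCBIM 37, the assembly of mm9, with a length for 21627 symbols. Promoters came from RefSeq on GRCm38.p6.

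The 10 genes and the 16 lists were chosen with earlier results of these data known. Beyond the 10 genes, named are *Csf1*, *Il34*, *Cx3cl1*, *Ciita*, the 3 genes of each list with the highest mean CPM or any that passed a test (described where a result turns on them), and the 10 genes most like the mean. *H2-DMa*, *H2-Oa*, *H2-Ob*, *Pirt*, *Tubb3*, *Cd209a*, *H2-Ea-ps* and the lists' counts at 0 were named after their values were seen. Tables and plots were made in Python 3.11.15 (numpy 2.4.6, pandas 2.3.3, matplotlib 3.10.9).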

Additional observations from a re-analysis of the deposited data

Results flagged for a closer look

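Within each ganglion, the highest and lowest of the 4 libraries were compared with the others by Dixon's test at the 95% level for every gene. Of 40 sets of 4 libraries, 30 had 1 library apart from the rest. The test was run on CPM, and its level of about 1 in 20 holds only for normally distributed values. Whether the CPM were so distributed was not tested, so the 30 cannot be set against that rate. The genes move together, so these 30 are not separate events.

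In T10-L1 DRG, library 4 was apart for 10 of 10 genes, with *Cd74* at 8512 CPM, *H2-Aa* at 5051, *H2-Ab1* at 3391, *H2-Eb1* at 4708, *Csf1r* at 3368, *Cx3cr1* at 896, *Aif1* at 145, *C1qa* at 1780, *C1qb* at 2790 and *C1qc* at 1834 CPM. The 10 genes together took 3.25% of its reads on genes, which was also apart. In L3–L5 DRG, library 1 was apart for 9 of 10 genes, all but *H2-Ab1*, with *Cd74* at 2879 CPM, *H2-Aa* at 2048, *H2-Eb1* at 1975, *Csf1r* at 1098, *Cx3cr1* at 281, *Aif1* at 64.7, *C1qa* at 860.5, *C1qb* at 1257 and *C1qc* at 844 CPM, and for their summed share of 1.29%.

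In NG/JG, library 1 was apart for 7 of 10 genes, with *Cd74* at 1775 CPM, *H2-Eb1* at 1407, *Csf1r* at 489, *Aif1* at 26.3, *C1qa* at 457, *C1qb* at 561 and *C1qc* at 467.5 CPM. In TG, library 4 was apart for 4 of 10 genes, with *H2-Aa* at 4802 CPM, *H2-Eb1* at 4604, *Aif1* at 229.5 and *C1qc* at 1802 CPM. In every case it was the highest library that stood apart, on a CPM scale that spreads high values more than low ones.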

How the results depend on the processing

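No gene of the 10 was called in any comparison under DESeq2, RLE size factors, no filter, 1 fit of all libraries or the replicate block, so all calls came from leaving out a library (0 to 7 for TG against T10-L1 DRG, 0 to 3 for TG against NG/JG, 0 to 2 for any difference, 0 in the other pairs). Of 360 log2 fold changes under the other settings, 357 kept direction and 0 passed the threshold. DESeq2 with its outlier cutoff gave only 0 to 8 of the 10 an adjusted p in a pair, and values without one count here as not passing. Of 480 with a library left out, 428 kept direction without passing the threshold, 42 turned sign and 10 passed the threshold. In the comparisons of NG/JG and DRG with each other, the sign turned for all 10 genes in 2 pairs and for 8 of 10 in NG/JG over T10-L1 DRG, where *Csf1r* (-8.83 to -0.65) and *Aif1* (-8.32 to -0.34) stayed negative.

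The labels do not say whether same-numbered libraries belong together, and the counts did not decide it. The correlation of same-numbered deviations ranged from -0.12 to 0.18 over pairs, and in no comparison was it above 0.1 for every pair. In NG/JG against L3–L5 DRG 4 of 4 libraries correlated best with their own number, in TG against T10-L1 DRG 3 of 4, and in the other comparisons 0 to 2 of 4. With the block, 3 values turned sign: *H2-Ab1* for NG/JG over L3–L5 DRG (-0.11), and *Cd74* (1.05) and *Cx3cr1* (0.12) for TG over T10-L1 DRG. The block raised the median over the 10 genes from 2.80 to 4.58 for TG over NG/JG (all genes 0.61), from 2.27 to 4.32 for TG over L3–L5 DRG (all genes -0.10) and from 0.95 to 2.13 for TG over T10-L1 DRG (all genes -0.21). Genes of the 10 at an unadjusted p under 0.05 in edgeR then went from 5, 3 and 0 to 10, 9 and 7, and from 0 to 9 for any difference, with 0 of 10 called at the adjusted threshold. Of all genes, 1065 of 11769, 1869 of 12900, 2478 of 12914 and 2233 of 14236 were at that unadjusted level with the block, in the same order. In L3–L5 DRG against T10-L1 DRG and in NG/JG against T10-L1 DRG and L3–L5 DRG the genes of the 10 went from 0 to 1, 4 and 4. There 770 of 13550, 772 of 12430 and 903 of 12240 of all genes were at that level. Over all genes, the block gave 0 calls for NG/JG against T10-L1 DRG, 0 for TG against T10-L1 DRG, 1 for TG against NG/JG and 184 for any difference.

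The number of genes called over the whole table moved with the method. edgeR called 0 for L3–L5 DRG against T10-L1 DRG, 4 for NG/JG against T10-L1 DRG, 0 for NG/JG against L3–L5 DRG, 758 for TG against T10-L1 DRG, 0 for TG against L3–L5 DRG, 6 for TG against NG/JG and 429 for any difference. In the same order DESeq2 gave 78, 910, 793, 2194, 1612, 856 and 1869, and without its outlier cutoff 81, 958, 799, 2201, 1613, 944 and 1853. Without the filter on low counts there were 9, 2, 427, 39, 56 and 241 from NG/JG against T10-L1 DRG onwards, and in 1 fit of all libraries 54, 83, 238, 206 and 484 for the same pairs. With a library left out the calls ranged from 0 to 0, 1 to 5, 0 to 2, 0 to 3583, 0 to 2038, 1 to 325 and 33 to 1035, the highest counts for TG against each other ganglion coming without TG library 1. The cause was not tested.

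Ranges of the log2 fold changes that turned sign with a library left out follow. For L3–L5 DRG over T10-L1 DRG they were -3.84 to 0.60 for *Cd74*, -3.68 to 0.77 for *H2-Aa*, -2.98 to 0.26 for *H2-Ab1*, -3.60 to 0.89 for *H2-Eb1*, -4.44 to 0.51 for *Csf1r*, -4.86 to 0.59 for *Cx3cr1*, -3.77 to 0.99 for *Aif1*, -4.44 to 1.26 for *C1qa*, -4.12 to 1.27 for *C1qb* and -3.92 to 1.28 for *C1qc*. For NG/JG over T10-L1 DRG they were -4.13 to 0.13 for *Cd74*, -3.64 to 0.11 for *H2-Aa*, -2.07 to 0.34 for *H2-Ab1*, -3.56 to 0.65 for *H2-Eb1*, -4.22 to 0.18 for *Cx3cr1*, -9.03 to 0.40 for *C1qa*, -8.71 to 0.12 for *C1qb* and -4.88 to 0.58 for *C1qc*. For NG/JG over L3–L5 DRG they were -2.40 to 1.66 for *Cd74*, -2.14 to 1.55 for *H2-Aa*, -0.75 to 1.77 for *H2-Ab1*, -2.12 to 1.95 for *H2-Eb1*, -6.98 to 1.45 for *Csf1r*, -2.32 to 2.51 for *Cx3cr1*, -6.93 to 1.08 for *Aif1*, -7.73 to 2.28 for *C1qa*, -7.36 to 1.62 for *C1qb* and -3.54 to 1.91 for *C1qc*. For TG over T10-L1 DRG they were -0.62 to 2.10 for *Cd74*, -2.90 to 0.70 for *Csf1r* and -1.74 to 1.99 for *Cx3cr1*. For TG over L3–L5 DRG they were -1.08 to 2.78 for *Csf1r*. At counts near the floor, as for *Aif1* in NG/JG, fitted values depend on the prior count and bound no fold.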

Other observations

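Other genes of the marker lists passed the test where the 10 genes did not. Neutrophil granule genes were lower in TG than in T10-L1 DRG in edgeR's quasi-likelihood test for 3 of 7 tested (*Ngp*, *Camp* and *Ltf*, adjusted p from 0.0248 to 0.0286), against 1.54% of all genes. *Ngp* had 0, 1, 0 and 0 counts in TG and 5, 2, 3 and 2 in NG/JG, against 1372, 1405, 207 and 4679 in T10-L1 DRG. All 4 T10-L1 DRG libraries were thus above all TG and NG/JG libraries for *Ngp*. In NG/JG against T10-L1 DRG, edgeR called *S100a9* and *Ngp* and the mural cell genes *Rgs5* and *Acta2* lower (adjusted p from 0.00199 to 0.0386). These were all 4 of the genes called among 12430 tested (0.0322%). The lists were chosen with earlier results of these data known, so the match is a description. *Rgs5* had 1 or 2 counts in each NG/JG library and 950 to 2517 in T10-L1 DRG. The T cell receptor complex gene *Cd3g* had 271, 31, 40 and 34 counts in TG and at most 3 in any other library (adjusted p = 0.029 for TG against T10-L1 DRG in edgeR). Genes of neurons, glia and fibroblasts passed it too. For TG against T10-L1 DRG, edgeR called the myelin gene *Mbp* higher (2.07 on the log2 scale, standard error 0.52, adjusted p = 0.046), and called lower the glial cadherin *Cdh19* (-1.96, standard error 0.45, adjusted p = 0.0374), the collagen gene *Col3a1* (-2.33, standard error 0.59, adjusted p = 0.046) and *Rgs5* (-2.02, standard error 0.50, adjusted p = 0.0448). The sensory neuron gene *Avil* (adjusted p = 0.0226) and the satellite glia gene *Apoe* (adjusted p = 0.0203) differed among the 4 ganglia in edgeR, as did *Sparc*, *S100a8*, *S100a9*, *Ngp*, *Camp*, *Rgs5* and *Cd3g* (adjusted p from 0.00152 to 0.0441).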
